A study of Trachinotus blochii with 22 samples.

Results

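The microRNA (miRNA) families miR-10, miR-99 and miR-100 and their frequent genomic neighbour miR-125 make up the group of 4 families described here. miRNAs are short RNAs that lower the output of the messenger RNAs they pair with. Their members were chosen by name alone, as every entry of the deposited miRNA table that carries one of these 4 names after its species prefix, with any letter, copy number or arm. The table has 2108 entries, of which 84 met this rule. Entries with the same value in every library were counted once, which left 58 distinct rows of 1400.

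The libraries were made from small RNA of golden pompano liver (Trachinotus blochii is a farmed sea fish of warm waters), and the study asked how miRNAs follow low oxygen and its rapid or gradual return. All 22 libraries are from liver, and the 8 groups differ, as far as the labels say, in oxygen treatment and time alone. Fish in normal oxygen (normoxia) gave 2 libraries at 0 h and 3 at 12 h. Fish under low oxygen (hypoxia) gave 3 libraries at 0 h and 3 at 12 h. Rapid reoxygenation gave 3 libraries at 3 h and 2 at 12 h, and gradual reoxygenation gave 3 at each of these times. The labels state neither the moment from which hours are counted nor whether each library came from its own fish or its own RNA extraction. The p-values below therefore reflect only how far these libraries differ, and that spread may be technical.

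The members have shared histories in animal genomes. Genes of miR-10 lie inside the Hox clusters, which pattern the body axis of the embryo, and in vertebrates miR-196 lies there too. In vertebrates, genes of miR-99 or miR-100, let-7 and miR-125 often stand next to each other in clusters: miR-100 with a let-7a and a miR-125b, miR-99a with let-7c and a miR-125b, and miR-99b with let-7e and miR-125a. miR-99 and miR-100 are nearly alike in sequence and in human cells lower the growth kinase MTOR. miR-125 is the vertebrate relative of lin-4, the first miRNA found, in Caenorhabditis elegans. Mature sequences are not printed here, since no reference was used.

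Names are those of the known miRNA that a row was matched to, so a prefix names the species of that known miRNA (ola, medaka; dre, zebrafish; ssa, Atlantic salmon; hsa, human; mmu, mouse; dme, fruit fly) and never the fish studied. Values are CPM, the reads of a row with each library scaled to the same total. The entry counts of a library summed to 17.5 to 33.8 M, where a read that matches several entries counts in each, and 1 read was worth 0.0296 to 0.0572 CPM. A row was tested when it reached 1 CPM in at least 2 libraries. Of the 58 member rows, 32 passed this filter. Near copies that stayed within 0.2 log2 units of each other in every library share most of their reads, and each set of them is represented below by its most abundant row. This left 22 leading rows, 7 of miR-10, 2 of miR-99, 5 of miR-100 and 8 of miR-125.

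miR-100 led the group by a wide margin. Its most abundant row, ola-miR-100, averaged 19483 ± 2937 CPM (SD, n = 22) and made up 1.07% to 2.27% of the summed entry counts of a library column. This is not a share of reads, since entries share reads. With near copies counted once, it was the 7th most abundant row of the table. Within each library it was 21.3 to 46.1 times the level of miR-99a and 29.1 to 60.3 times that of miR-125b, and it was 0.155 to 0.315 times that of miR-122, the leading miRNA of hepatocytes. The leading rows that followed were miR-10c (dre-miR-10c-5p, 1264 ± 336 CPM), miR-99a (bta-miR-99a-5p, 652 ± 101 CPM), miR-125b (chi-miR-125b-5p, 479 ± 94.8 CPM), miR-99b (aca-miR-99b-5p, 150 ± 38.9 CPM) and miR-125a (dre-miR-125a, 136 ± 35.8 CPM), each over the same 22 libraries. Of the 7 leading rows of at least 100 CPM, the last was a further row of miR-100 (nve-miR-100-5p, 127 ± 24.1 CPM). The mean levels of miR-99b, miR-125a and nve-miR-100-5p lay within 1 SD of each other over the libraries. That SD does not measure their order within a library, which was not tested.

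**Figure D1:**
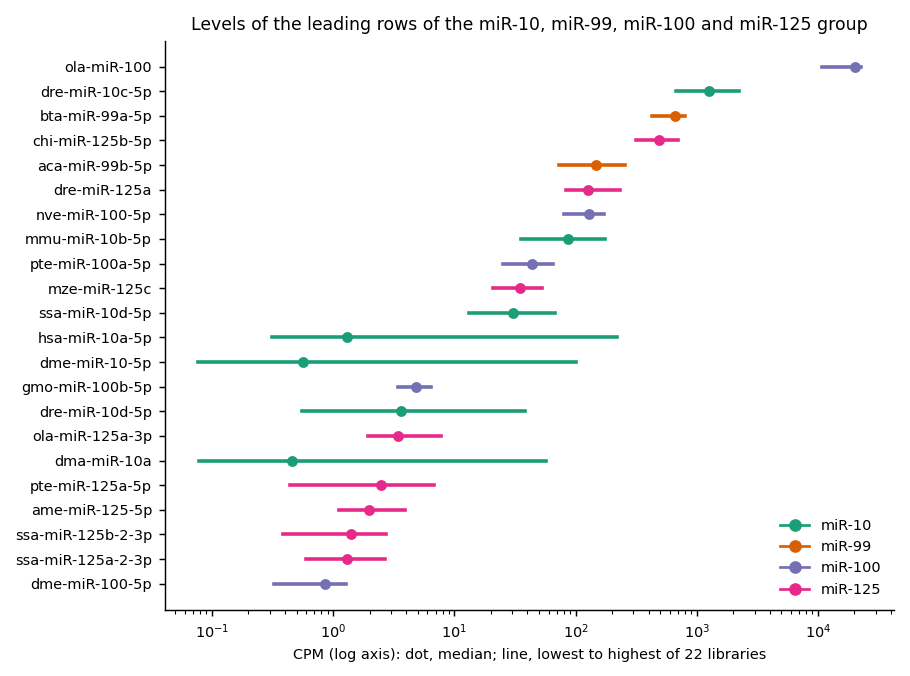
Levels of the 22 leading rows, most abundant at the top. The x axis gives CPM on a log scale, dots mark the median and lines run from the lowest to the highest of the 22 libraries, with colours for the 4 families. miR-100 lies above all the other rows in every library, and the 3 rows of miR-10a type (hsa-miR-10a-5p, dme-miR-10-5p and dma-miR-10a) have the longest lines.

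Over all tested rows, normoxia 0 h library 2 was far from the other libraries, and it was so among these members as well. Its root mean square distance from the median library was 1.34 log2 units, and the other 21 lay at 0.345 to 0.868. It held the lowest values of miR-100, miR-125b, miR-99b and nve-miR-100-5p and the highest of miR-10b and of both miR-10d rows. Summed levels of cell type markers differed there too: the 3 epithelial markers (miR-200, miR-141, miR-429) reached 15249 CPM against at most 2890 CPM elsewhere, and the 7 vascular and stromal markers 69306 CPM against at most 41801 CPM. The 3 striated muscle markers reached 477 CPM against at most 195 CPM, and the islet marker miR-375 reached 59.2 CPM against at most 36.2 CPM. The 3 erythroid and the 3 neural markers were at their lowest there, at 858 and 262 CPM. The 3 hepatocyte markers (miR-122, miR-192, miR-194), which check the labelled tissue, summed to 84922 to 143230 CPM over the libraries. Their highest sum was also in normoxia 0 h library 2, against at most 127481 CPM elsewhere. miR-100 was at 10698 CPM in that library, and in every library it was at least 0.155 times the level of miR-122. In normoxia 0 h library 2, miR-122 therefore made up less of the sum than miR-192 and miR-194 together. The 4 leukocyte markers were highest there too, at 134 CPM against at most 128 CPM. The 2 pancreatic acinar markers, at 4115 CPM, lay within the range of the other libraries. In these sums each marker name is represented by its most abundant row alone. For miR-1 and miR-124 that row is named 5p (mmu-miR-1b-5p, mmu-miR-124-5p), and for miR-9 it is named 3p (oha-miR-9-3p). The other arms of miR-1, miR-124 and miR-9 are not in the sums. None of these representing rows was at 0 in any library. Other rows of a marker could be, as hsa-miR-375-3p was at 0 CPM in rapid reoxygenation at 3 h, library 1. In whole tissue, fewer cells of a type and less RNA per cell cannot be told apart. The part that these differences have in the values of the members was not tested.

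miR-100 had no called difference between treatments. At 0 h of normoxia it was at 10698 CPM in library 2 and 22323 CPM in library 3, which is close to its whole range in the study. At 12 h of normoxia it was at 22741, 21333 and 19244 CPM, and at 12 h of hypoxia at 20334, 20678 and 22723 CPM. These groups overlapped, and their log2 difference was 0.01 with a 95% interval from −0.44 to 0.47.

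At 0 h of hypoxia miR-100 was at 20389, 14650 and 20646 CPM. After rapid reoxygenation it was at 19888, 19795 and 17929 CPM at 3 h and at 17073 and 18261 CPM at 12 h. The 2 libraries of rapid reoxygenation at 12 h lay below every library of hypoxia, normoxia and gradual reoxygenation at 12 h. With 2 or 3 libraries in a group, such separation can arise without a treatment effect. The leading rows lay apart in 0 to 5 of the 11 comparisons of groups. The same share over all rows is not given here, so separation of this and the rows below only describes these libraries. After gradual reoxygenation it was at 15098, 21747 and 20973 CPM at 3 h and at 20335, 21978 and 19800 CPM at 12 h. Rapid reoxygenation at 12 h differed from hypoxia at 12 h by −0.27 ± 0.24 (log2 change ± SE; adjusted p = 0.978, limma with Benjamini-Hochberg adjustment), and the interval ran from −0.77 to 0.24. Over the 11 comparisons of groups its log2 change lay between −0.27 and 0.45 and its adjusted p between 0.312 and 0.999.

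miR-99a, a near relative of miR-100 by sequence, had the narrowest spread of the abundant members. Its SD within groups was 0.22 log2 units, and 4.98% of tested rows had a smaller one. It was lowest in gradual reoxygenation at 12 h, library 3 (430 CPM), and highest in rapid reoxygenation at 12 h, library 1 (802 CPM).

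At 0 h of normoxia miR-99a was at 455 and 527 CPM, and at 0 h of hypoxia at 715, 658 and 655 CPM. At 12 h it was at 648, 718 and 613 CPM in normoxia and at 691, 769 and 715 CPM in hypoxia. Both normoxia 0 h libraries lay below all those of hypoxia 0 h and of normoxia 12 h, whereas the groups at 12 h overlapped. The log2 change from normoxia to hypoxia at 0 h was 0.46 ± 0.23 (adjusted p = 0.620, limma), and at 12 h it was 0.14 ± 0.20 (adjusted p = 0.997, limma). The difference between these 2 changes was −0.33 ± 0.30 (adjusted p = 0.894, limma).

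Under reoxygenation miR-99a was at 731, 762 and 564 CPM (rapid, 3 h), 802 and 577 CPM (rapid, 12 h), 603, 665 and 646 CPM (gradual, 3 h) and 798, 599 and 430 CPM (gradual, 12 h). The groups overlapped, and the last of them spread the most. Gradual and rapid reoxygenation differed by −0.09 at 3 h (95% interval −0.52 to 0.33) and by −0.20 at 12 h (−0.68 to 0.27) on the log2 scale.

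miR-99b, the neighbour of let-7e and miR-125a in mammalian genomes, was at 72.5 and 255 CPM in the 2 libraries of normoxia 0 h, its lowest and highest values in the study. At 12 h it was at 145, 196 and 163 CPM in normoxia, 156, 185 and 151 CPM in hypoxia, 141 and 113 CPM after rapid reoxygenation and 97.9, 128 and 104 CPM after gradual reoxygenation. All 3 gradual libraries lay below all those of normoxia and hypoxia at 12 h, and so did both rapid ones. The change under gradual reoxygenation was −0.61 ± 0.32 against normoxia (adjusted p = 0.533, limma) and −0.58 ± 0.32 against hypoxia (adjusted p = 0.581, limma). With TMM scaling (trimmed mean of M-values) these were −0.40 and −0.40.

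At the earlier times miR-99b was at 182, 130 and 161 CPM (hypoxia, 0 h), 159, 132 and 134 CPM (rapid, 3 h) and 134, 187 and 174 CPM (gradual, 3 h). These groups overlapped. The ratio of miR-99a to miR-99b within a library had a median of 4.45. It ran from 2.07 in normoxia 0 h, library 3, to 8.16 in gradual reoxygenation at 12 h, library 1, and the next values inwards were 3.55 and 6.28.

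miR-125b had the smallest range of changes among the abundant members. In normoxia it was at 314 and 701 CPM at 0 h, the extremes of the study, and at 629, 354 and 484 CPM at 12 h. In hypoxia it was at 503, 430 and 422 CPM at 0 h and at 506, 440 and 589 CPM at 12 h. Groups overlapped in all 11 comparisons.

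After reoxygenation miR-125b was at 398, 487 and 399 CPM (rapid, 3 h), 469 and 612 CPM (rapid, 12 h), 520, 488 and 365 CPM (gradual, 3 h) and 524, 404 and 487 CPM (gradual, 12 h). Its log2 changes lay between −0.19 and 0.17 over the 11 comparisons, and no 95% interval reached below −0.82 or above 0.80.

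miR-125a, which has the same seed as miR-125b in vertebrates, stood at 160, 159 and 158 CPM in hypoxia at 0 h, the tightest group of this row. After gradual reoxygenation for 3 h it was at 83.9, 124 and 86.7 CPM, and after rapid reoxygenation for 3 h at 128, 171 and 113 CPM. The gradual libraries lay below all those of hypoxia 0 h and overlapped with the rapid ones. The change from hypoxia to gradual reoxygenation was −0.71 ± 0.30 on the log2 scale (adjusted p = 0.307, limma), which did not pass.

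In the remaining groups miR-125a was at 115 and 162 CPM (normoxia, 0 h), 167, 84.6 and 120 CPM (normoxia, 12 h), 130, 110 and 170 CPM (hypoxia, 12 h), 117 and 235 CPM (rapid, 12 h) and 155, 125 and 109 CPM (gradual, 12 h). The ratio of miR-125b to miR-125a had a median of 3.64 and ran from 2.61 to 6.20.

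The further row of miR-100, nve-miR-100-5p, was at 80.2 and 172 CPM in normoxia 0 h, its lowest and highest values, and at 146, 133 and 123 CPM in normoxia 12 h. It was at 133, 93.1 and 140 CPM in hypoxia at 0 h and at 138, 151 and 118 CPM in hypoxia at 12 h. After rapid reoxygenation it was at 122, 124 and 109 CPM at 3 h and at 113 and 104 CPM at 12 h, and after gradual reoxygenation at 97.9, 143 and 143 CPM at 3 h and at 145, 166 and 92.2 CPM at 12 h. Both rapid libraries at 12 h lay below all those of normoxia and hypoxia at 12 h. Over the 11 comparisons its log2 change lay between −0.31 and 0.27 and its adjusted p in limma between 0.781 and 0.999.

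**Figure D2:**
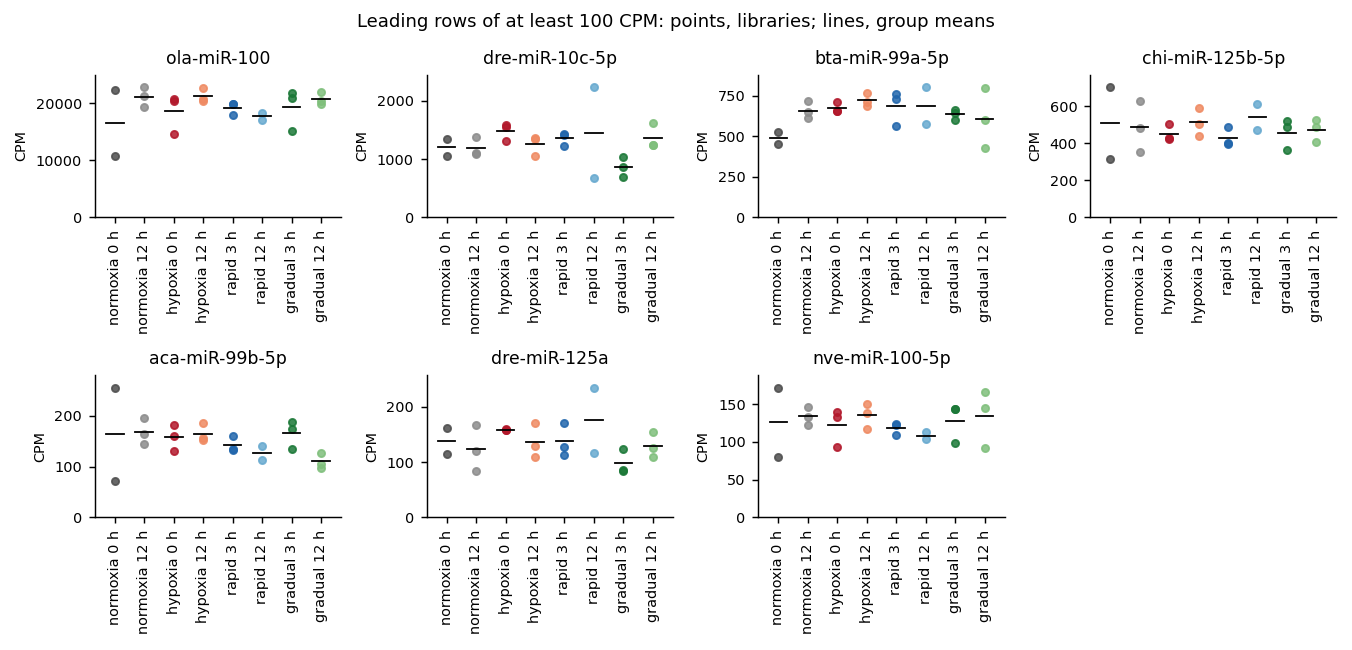
CPM of the 7 leading rows of at least 100 CPM, by group. Points are libraries, lines are group means and every y axis starts at 0. For each row, groups overlap in most of the 11 comparisons, and in all of them for miR-125b alone. The 2 libraries of normoxia 0 h are far apart for miR-100, miR-125b and miR-99b. The 3 libraries of gradual reoxygenation at 3 h are the lowest group for miR-10c.

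miR-10c was the most abundant member of the Hox family, at 1306, 1580 and 1545 CPM in hypoxia at 0 h. After 3 h it was at 1421, 1423 and 1224 CPM with rapid reoxygenation and at 683, 1033 and 864 CPM with gradual reoxygenation. All 3 gradual libraries lay below all those of hypoxia 0 h and of rapid reoxygenation at 3 h. The log2 change of the gradual group was −0.79 ± 0.30 against hypoxia 0 h (adjusted p = 0.280, limma; 95% interval −1.43 to −0.16) and −0.67 ± 0.30 against the rapid group (adjusted p = 0.442, limma). Neither passed, and over the other settings tried the adjusted p of the first lay between 0.0804 and 0.639.

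At 12 h miR-10c was at 673 CPM in library 1 and 2230 CPM in library 2 of rapid reoxygenation, its lowest and highest values. It was at 1380, 1109 and 1079 CPM in normoxia, 1360, 1048 and 1352 CPM in hypoxia and 1238, 1239 and 1614 CPM after gradual reoxygenation at 12 h. At 0 h of normoxia it was at 1053 and 1349 CPM. These groups overlapped. The test of whether the gradual to rapid difference changed between 3 h and 12 h gave 0.82 ± 0.46 (adjusted p = 0.518, limma). Without library 2 of rapid reoxygenation at 12 h it passed (1.68, adjusted p = 0.00703, limma), with the low library 1 as the only one of its group, which is then assumed to vary like the other groups. In that fit 2.49% of all rows were called.

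The summed level of both pancreatic acinar markers (miR-216 and miR-217) was lowest in the same 2 libraries where miR-10c was lowest. It was 32.5 CPM in rapid reoxygenation at 12 h, library 1, and 38.3 CPM in gradual reoxygenation at 3 h, library 1. The 3 gradual libraries at 3 h held 38.3 to 1378 CPM of it, against 2290 to 3483 CPM in hypoxia 0 h and 2534 to 3494 CPM in rapid reoxygenation at 3 h. The sum of the 3 erythroid markers (miR-144, miR-451, miR-2188) was 9755 to 13151 CPM in the gradual libraries at 3 h, 2784 to 5021 CPM in hypoxia 0 h and 3039 to 4858 CPM in the rapid group. Other lists lay apart from both groups as well. The vascular and stromal sum was 21327 to 23718 CPM in the gradual libraries, 29601 to 41801 CPM in hypoxia 0 h and 25054 to 29645 CPM in the rapid group. The epithelial sum was also lower in the gradual libraries and the hepatocyte sum higher, without overlap. Neural, islet and striated muscle sums lay apart from hypoxia 0 h only, and leukocyte sums overlapped with both. Low acinar sums also occurred with higher miR-10c. Normoxia 12 h libraries 1 and 2 held 901 and 467 CPM of that sum, with miR-10c at 1380 and 1109 CPM. Gradual reoxygenation at 12 h, library 3, held 1340 CPM, with miR-10c at 1614 CPM. The erythroid sum was 7452 to 14456 CPM in normoxia 12 h, where miR-10c was at 1079 to 1380 CPM. The part of these marker sums in the values of miR-10c and miR-125a was not tested.

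The leading rows of miR-10b and miR-10d moved from library to library together. A read that matches both counts in each, so they may partly be the same reads. How many reads they share is not known here. miR-10b (mmu-miR-10b-5p) averaged 87.0 ± 33.9 CPM and miR-10d (ssa-miR-10d-5p) 32.2 ± 13.6 CPM over the 22 libraries, and their ratio stayed between 2.15 and 3.06, with a median of 2.79. In normoxia, miR-10b was at 176 and 95.3 CPM at 0 h and at 85.4, 69.9 and 35.2 CPM at 12 h. miR-10d was at 67.3 and 44.3 CPM at 0 h and at 30.4, 24.8 and 13.2 CPM at 12 h.

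Both rows were lower in all 3 normoxia libraries at 12 h than in either at 0 h, by −1.11 ± 0.46 for miR-10b (adjusted p = 0.156, limma) and −1.30 ± 0.47 for miR-10d (adjusted p = 0.108, limma) on the log2 scale. Without library 2 of normoxia 0 h, which stood apart, these were −0.67 (adjusted p = 0.640, limma) and −1.004 (adjusted p = 0.542, limma). Without library 3, which leaves library 2 as the only one of its group, assumed to vary like the other groups, they were −1.55 (adjusted p = 0.0426, limma) and −1.595 (adjusted p = 0.0488, limma), and 32.1% of all rows were called. DESeq2 on the recovered reads called miR-10d here (log2 change −1.36, adjusted p = 0.0384), where it called 16.1% of all rows. edgeR did not call it (adjusted p = 0.0943), where it called 12.1% of all rows.

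Sums of some marker lists also differed between normoxia at 12 h and at 0 h without overlap. The vascular and stromal sum was 19752 to 24654 CPM at 12 h and 34151 to 69306 CPM at 0 h, and the acinar sum was 467 to 2888 CPM against 4115 to 4261 CPM. The epithelial sum was 884 to 2021 CPM at 12 h and 2413 to 15249 CPM at 0 h, whereas the erythroid sum was higher at 12 h, at 7452 to 14456 CPM against 858 to 2434 CPM. The neural sum was also higher at 12 h, at 598 to 735 CPM against 262 to 391 CPM. The hepatocyte, leukocyte, islet and striated muscle sums overlapped. The part of these marker sums in the values of miR-10b and miR-10d was not tested.

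In the treated groups miR-10b was at 98.4, 88.1 and 149 CPM (hypoxia, 0 h), 78.9, 46.7 and 91.7 CPM (hypoxia, 12 h), 54.4, 70.7 and 76.1 CPM (rapid, 3 h), 78.1 and 138 CPM (rapid, 12 h), 40.7, 112 and 87.6 CPM (gradual, 3 h) and 88.2, 62.9 and 91.5 CPM (gradual, 12 h). The rapid libraries at 3 h lay below all those of hypoxia 0 h, by −0.70 ± 0.41 (adjusted p = 0.999, limma), and the other treated groups that were compared overlapped. miR-10d ranged from 13.4 to 56.6 CPM over the treated groups. The ratio of miR-10c to miR-10b was far less even than that of miR-10b to miR-10d, from 5.97 in normoxia 0 h, library 2, to 30.7 in normoxia 12 h, library 3.

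A second miR-10d row, dre-miR-10d-5p, behaved differently from ssa-miR-10d-5p. It had a median of 3.63 CPM and was at 38.1 CPM in normoxia 0 h, library 2, and at 1.02 CPM in library 3 of that group. Its next highest value in the study was 7.18 CPM. The ratio of the first miR-10d row to the second ran from 1.77 to 45.4 over the libraries, so the 2 names do not stand for one measurement.

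miR-10a was low in most libraries, by far the highest in 1 library and next highest in another of the same group. Its leading row, hsa-miR-10a-5p, had a median of 1.29 CPM and was at 219 CPM in rapid reoxygenation at 3 h, library 3, at 21.5 CPM in library 2 and at 0.724 CPM in library 1 of the same group. Outside that group the highest value was 8.92 CPM, in hypoxia 0 h, library 2. Library 3 held more of this row than of miR-10b, 2.88 to 1, whereas the median ratio was 0.0150. The other rows of this type followed: sha-miR-10a at 201 CPM, dme-miR-10-5p at 100.4 CPM and dma-miR-10a at 57.2 CPM in library 3, against medians of 1.15, 0.563 and 0.455 CPM over all libraries.

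Gradual reoxygenation at 3 h held 0.315, 1.16 and 0.592 CPM of hsa-miR-10a-5p, which overlaps with library 1 of the rapid group. The log2 difference between gradual and rapid reoxygenation was −3.63 ± 1.11 with a 95% interval from −5.97 to −1.28, and it did not pass (adjusted p = 0.242, limma). It passed in DESeq2 (adjusted p = 3.78e-07), which called 2.33% of all rows. In limma it passed without library 1 of rapid reoxygenation at 3 h (−5.41, adjusted p = 0.00108), where 0.997% of all rows were called. Without library 3 the change was −1.91 (adjusted p = 0.669, limma). A further search, chosen after these values were seen, asked which rows of library 3 were at 5 CPM or more and at least 30 times the median of the other 21 libraries. It found 7 rows, 4 of them these miR-10 rows, and the others were hsa-miR-375-3p (6.51 CPM), hsa-miR-30a-5p (139 CPM) and its near copy cpi-miR-30a-5p.

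**Figure D3:**
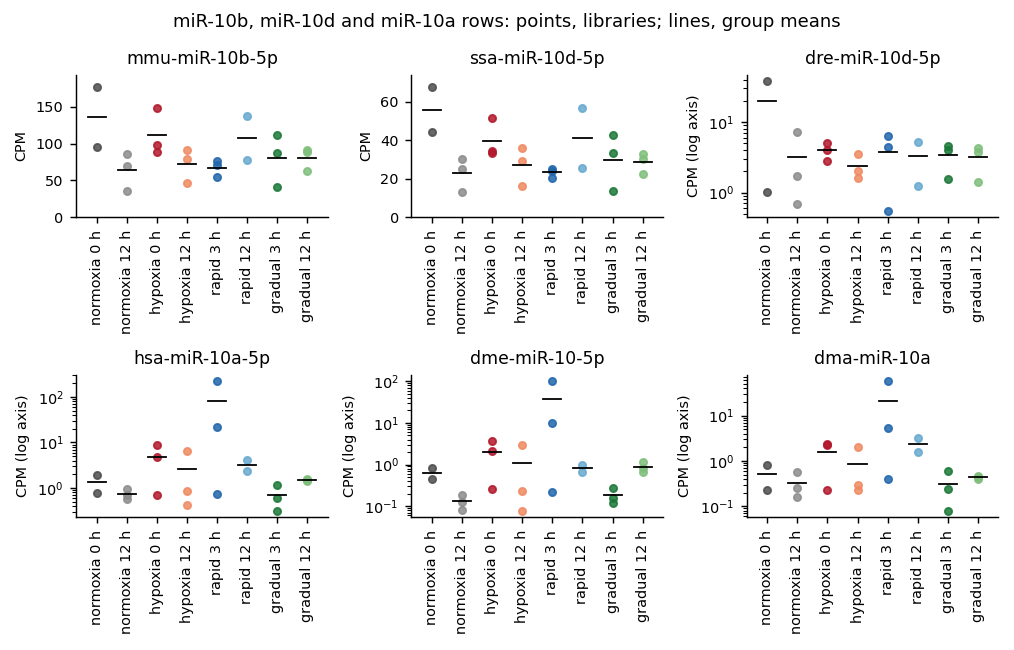
CPM of the miR-10b, miR-10d and miR-10a rows, by group. Points are libraries and lines are group means; the upper left and middle panels start at 0 and the other 4 have log axes. miR-10b and ssa-miR-10d-5p share their pattern, and dre-miR-10d-5p has 1 high library in normoxia 0 h. The miR-10a rows are highest in 1 library of rapid reoxygenation at 3 h, with a second library of that group above the other groups.

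Rows named for the 3p arm were low in these families. Their names are those of known miRNAs, so 3p reads of this fish that match none of them are not in these rows. A hairpin precursor yields a 5p and a 3p strand, of which the 5p strand is the one commonly kept in these 4 families. Of the 58 rows, 25 were named 5p, 19 were named 3p and 14 carried no arm. Of these, 22, 3 and 7 were tested. The 3 tested rows of the 3p arm were all of miR-125 and averaged at most 3.91 CPM. miR-125a was 21.1 to 61.7 times as high on its leading row, which carries no arm name, as on its 3p row (ola-miR-125a-3p), and miR-125b 166 to 1250 times (ssa-miR-125b-2-3p).

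The 26 rows that were not tested reached at most 0.680 CPM in any library. They had between 1 and 137 reads over all 22 libraries, 6 of them at most 3 reads, and 3 were seen in 1 library only. Of these rows 16 were of the 3p arm, 3 of the 5p arm and 7 carried no arm.

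Some of these 3p rows were at their lowest after gradual reoxygenation. ola-miR-125a-3p was at 2.52, 2.02 and 2.09 CPM at 12 h of gradual reoxygenation, 5.37, 3.50 and 4.89 CPM in normoxia 12 h, 3.08, 4.37 and 4.39 CPM in hypoxia 12 h and 2.55 and 6.75 CPM after rapid reoxygenation for 12 h. The gradual libraries lay below all those of the other 3 groups. The log2 change was −0.79 ± 0.30 against normoxia 12 h (adjusted p = 0.295, limma) and −0.62 ± 0.30 against hypoxia 12 h (adjusted p = 0.518, limma).

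ssa-miR-125b-2-3p was at 0.801, 0.562 and 0.390 CPM after gradual reoxygenation for 12 h and at 1.68, 1.19 and 1.47 CPM in hypoxia 12 h. Its libraries did not overlap either, and the change was −0.63 ± 0.25 (adjusted p = 0.454, limma). For the leading rows of the same names the change against hypoxia 12 h was −0.07 ± 0.30 for miR-125a and −0.12 ± 0.27 for miR-125b. The difference between arms was not tested.

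The spread between libraries of one group sets what these data can show. The SD within groups of the 22 leading rows ran from 0.18 log2 units (gmo-miR-100b-5p) to 1.51 (hsa-miR-10a-5p), with a median of 0.34. It was 0.40 over all 602 tested rows. Among the rows of at least 100 CPM it was 0.33 for the 7 members and 0.36 for all 168 rows.

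**Figure D4:**
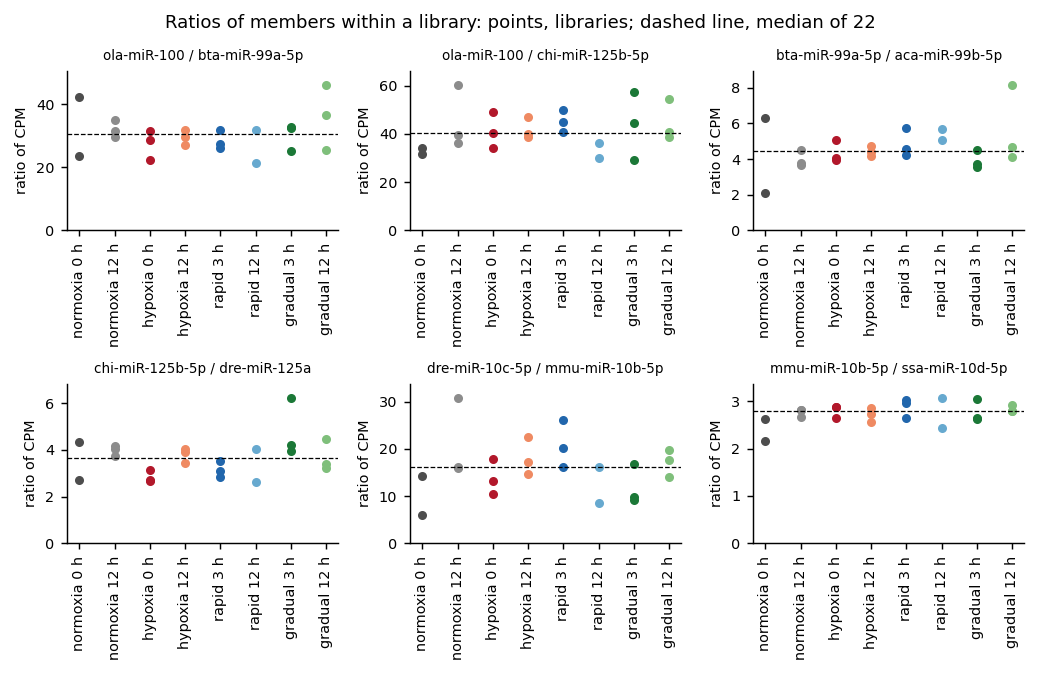
Ratios of pairs of members within a library, by group. Points are libraries, the dashed line is the median of the 22 and the y axes start at 0. The ratio of miR-10b to ssa-miR-10d-5p stays between 2.15 and 3.06, while that of miR-10c to miR-10b runs from 5.97 to 30.7.

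Each comparison below was fitted in limma over all 602 tested rows, and members are read against the share of all rows that was called. A row was called when its adjusted p was under 0.05. None of the 32 tested members was called in any of the 14 tests, so each comparison also states how many had an unadjusted p under 0.05, with the same share over all rows. Comparisons that share a group share its libraries and are not independent. Near copies count separately among the 32 members, so these counts are not counts of separate signals.

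Between hypoxia and normoxia at 12 h, 26 members lay above 0 and 6 below, with a median log2 change of 0.09 against −0.01 over all tested rows. No member was called, where 0.664% of all rows were. No member had an unadjusted p under 0.05, against 3.82% of rows. miR-99a was at 725 ± 39.8 CPM in hypoxia and 660 ± 53.4 CPM in normoxia (n = 3 each), and miR-10c at 1253 ± 178 and 1189 ± 166 CPM. Of the 22 leading rows, 16 lay above 0. DESeq2 and edgeR called no member either, where they called 1.99% and 0.498% of all rows.

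Between hypoxia and normoxia at 0 h, 18 members lay above 0 and 14 below, with a median of 0.20 against −0.05 over all rows. With TMM scaling these numbers were 22 and 10. No member was called, where 0.498% of all rows were, and none had an unadjusted p under 0.05, against 8.31% of rows. DESeq2 and edgeR called no member, where they called 7.14% and 3.49% of all rows. The 2 normoxia libraries differed from each other by more than the groups did for miR-100, miR-125b and miR-99b. Without library 3 of normoxia 0 h, the library that stood apart is the only one of its group. In that fit miR-100 (log2 0.78) and miR-99b (1.09) were higher in hypoxia, and dre-miR-10d-5p was lower (−3.01). Without library 2 the change of dre-miR-10d-5p was 1.27. Where library 3 is left out, the lone library is assumed to vary like the other groups. The test of whether the hypoxia difference changed between 0 h and 12 h called no member, where 0.997% of rows were called, and none had an unadjusted p under 0.05, against 8.97%. DESeq2 and edgeR called no member in it, where they called 5.15% and 0.498% of rows. Without library 3 of normoxia 0 h, it called miR-99b (−1.12, adjusted p = 0.0286, limma) and 15.3% of all rows.

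The labels give time as the only difference between normoxia at 12 h and at 0 h. The columns of normoxia 0 h were placed by number alone, and library 2 of that group stood apart from the other libraries. This comparison had 4.82% of all rows called, the most of the 14 tests. No member was among them, and 6 had an unadjusted p under 0.05, against 21.9% of rows. The 6 were the 4 near-identical miR-10b rows, ssa-miR-10d-5p and ssa-miR-125b-2-3p, all lower at 12 h. Of the members, 15 lay above 0 and 17 below (median −0.07, and −0.06 over all rows), or 16 on each side with TMM scaling. Leaving out library 3 of normoxia 0 h leaves 1 library in that group. The log2 change was then 0.98 for miR-100, 1.19 for miR-99b and 1.39 for pte-miR-125a-5p. It was −1.55 for miR-10b, −1.595 for ssa-miR-10d-5p and −3.545 for dre-miR-10d-5p. DESeq2 called ssa-miR-10d-5p and 16.1% of all rows, and edgeR called no member and 12.1% of all rows.

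In rapid reoxygenation at 3 h, compared with hypoxia 0 h, 11 members lay above 0 and 21 below, with a median of −0.06 against −0.02 over all rows. No member was called, and the share over all rows was 0%. The rows dme-miR-10-5p and dma-miR-10a had an unadjusted p under 0.05, against 2.66% of rows. In libraries 1 to 3 of the rapid group, dme-miR-10-5p was at 0.220, 9.73 and 100.4 CPM and dma-miR-10a at 0.409, 5.27 and 57.2 CPM. DESeq2 called 3 members here, all of the miR-10a type, and 1.16% of all rows, and edgeR called none (0% of all rows). Without library 1 of the rapid group, limma called all 4 rows of that type (hsa-miR-10a-5p at 3.92, adjusted p = 0.0213) and again 1.16% of all rows. With quantile normalization, 15 members lay above 0 and 17 below.

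In gradual reoxygenation at 3 h, compared with hypoxia 0 h, 14 members lay above 0 and 18 below, with a median of −0.14 against 0.02 over all rows. None was called (0% of all rows), and 4 had an unadjusted p under 0.05, against 14.8% of rows. These were miR-10c, both near-identical rows of miR-125a, and ola-miR-125a-3p, all lower in the gradual group. DESeq2 and edgeR called no member, where they called 3.49% and 0% of all rows.

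Gradual and rapid reoxygenation at 3 h were then set against each other. Here 16 members lay above 0 and 16 below, with a median of 0.03 against −0.01 over all rows. With quantile normalization, 22 lay above and 10 below. None was called (0% of all rows), and 5 had an unadjusted p under 0.05, against 9.47% of rows. These were the 4 rows of miR-10a type and miR-10c, all lower in the gradual group. DESeq2 called the 4 rows of miR-10a type and 2.33% of all rows. edgeR called 0% of all rows, and its smallest adjusted p among members was 0.0539.

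At 12 h the same pair of treatments gave 11 members above 0 and 21 below, with a median of −0.21 against −0.06 over all rows. None was called (0% of all rows), and 2 had an unadjusted p under 0.05, against 6.81% of rows: ola-miR-125a-3p and ssa-miR-125b-2-3p, both lower in the gradual group. Neither DESeq2 nor edgeR called a member, where they called 0.664% and 0% of all rows. The test of whether the gradual to rapid difference changed between 3 h and 12 h called no member, where 0.166% of rows were called. One row, dme-miR-10-5p, had an unadjusted p under 0.05, against 10.5% of rows. DESeq2 called 3 rows of miR-10a type and 5.15% of all rows, and edgeR called no member and 0.166% of all rows. Without library 1 of rapid reoxygenation at 3 h, limma called dme-miR-10-5p (4.84, adjusted p = 0.0244) and 0.997% of all rows.

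Rapid reoxygenation at 12 h was compared with hypoxia and with normoxia at that time. Against hypoxia, 17 members lay above 0 and 15 below (median 0.07, and −0.01 over all rows). Of the 22 leading rows, 10 lay above and 12 below (median −0.01), so the direction depends on the near copies. No member was called (0% of all rows) and none had an unadjusted p under 0.05, against 4.98% of rows. Against normoxia, 21 lay above 0 and 11 below (median 0.16, and −0.04 over all rows). Of the leading rows, 14 lay above and 8 below (median 0.09). No member was called (0% of all rows) and none had an unadjusted p under 0.05, against 4.49% of rows. DESeq2 and edgeR called no member in either. DESeq2 called 0% of all rows against hypoxia and 1.33% against normoxia, and edgeR 0% in both.

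Gradual reoxygenation at 12 h gave directions that depend on the scaling. Against hypoxia at 12 h, 9 members lay above 0 and 23 below, with a median of −0.07 against −0.11 over all rows. With TMM scaling, 21 lay above and 11 below, and the median of all rows moved to 0.04, while quantile normalization gave 13 above and 19 below. None was called (0% of all rows), and 2 had an unadjusted p under 0.05, against 9.80% of rows: ssa-miR-125a-2-3p and ssa-miR-125b-2-3p, both lower in the gradual group. Neither DESeq2 nor edgeR called a member, where they called 2.82% and 0% of all rows.

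Against normoxia at 12 h, 15 members lay above 0 and 17 below, with a median of −0.02 against −0.12 over all rows. With TMM scaling, 26 lay above and 6 below, with medians of 0.19 and 0.05, and with quantile normalization 19 lay above and 13 below. No member was called, where 1.66% of rows were. One, ola-miR-125a-3p, had an unadjusted p under 0.05, against 10.6% of rows. No member was called by DESeq2 or edgeR, which called 3.65% and 0% of all rows.

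**Figure D5:**
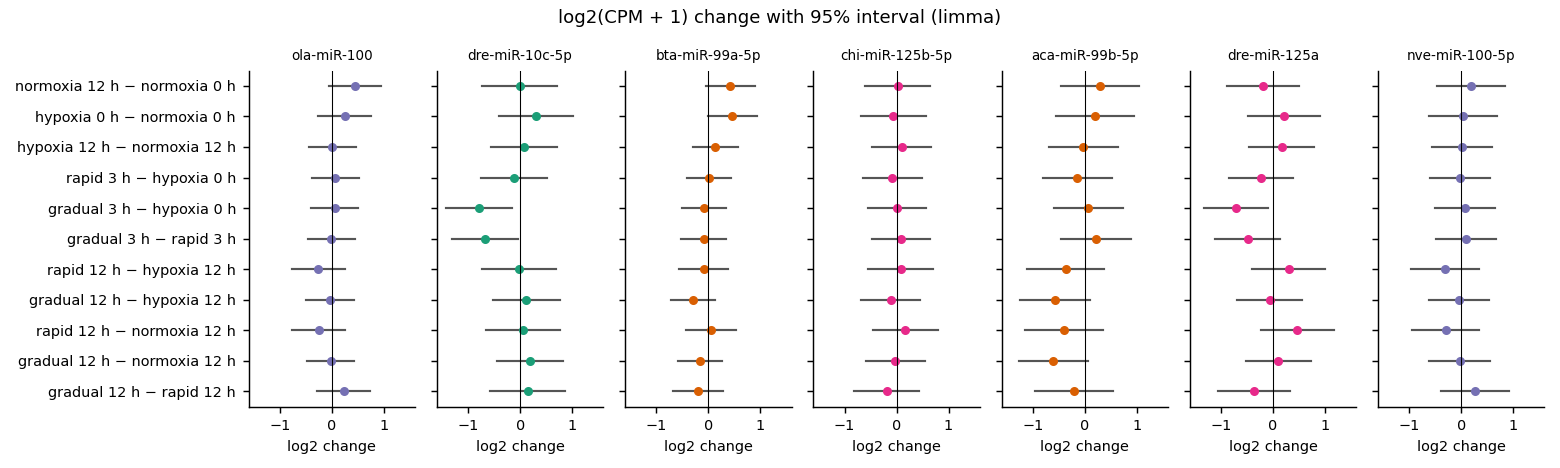
log2(CPM + 1) changes of the 7 leading rows of at least 100 CPM in the 11 comparisons of groups. Dots are changes and lines 95% intervals from limma. The intervals of miR-10c and miR-125a leave 0 for gradual reoxygenation at 3 h against hypoxia 0 h, and that of miR-10c also against rapid reoxygenation at 3 h; none of these passed after adjustment.

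A single test of any difference among the 8 groups called no member, where 1.50% of rows were called. One, ssa-miR-125b-2-3p, had an unadjusted p under 0.05 (adjusted p = 0.284, limma), against 14.8% of rows. edgeR called 4 members in this test, all of the miR-10a type, where it called 15.1% of all rows. DESeq2 called 6, the same 4 rows with ola-miR-125a-3p and ssa-miR-125b-2-3p, where it called 24.4% of all rows. limma called 5 without library 3 of normoxia 0 h, where it called 25.4% of all rows, and 4 without library 1 of rapid reoxygenation at 3 h, where it called 2.66%.

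The neighbours of these miRNAs in vertebrate clusters were present at unequal levels. Of let-7e, the neighbour of miR-99b and miR-125a, the leading row (ola-let-7e) averaged 5128 ± 837 CPM, and miR-100 stood at 2.63 to 5.59 times its level. Of let-7c, the neighbour of miR-99a, it averaged 145 ± 30.2 CPM (efu-let-7c), and of let-7a 29.3 ± 8.91 CPM (oha-let-7a-3-3p, a 3p row). The leading rows of let-7e and let-7c carry no arm name, so these levels do not rank let-7a against them. Of the tested rows, 5 of let-7a, 2 of let-7c and 3 of let-7e, none was called in the 13 comparisons. The smallest adjusted p was 0.341, for let-7e.

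miR-196, the other miRNA of the Hox clusters, had 5 rows, of which none was tested. The row with the highest mean, gga-miR-196-5p, reached at most 0.191 CPM in any library. In the same libraries miR-10c was at 673 CPM or more throughout. No distinct row was named lin-4. The names of lin-4, let-7 and miR-196 were searched among the distinct rows only. An entry removed as a repeat of a row with another name would be missed.

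For normoxia 0 h and for rapid reoxygenation 12 h, the means that the authors deposited are not those of the libraries analysed here, which number 2 in each. In the authors' deposited table, the mean of miR-100 was 18733 CPM in normoxia 0 h and 16535 CPM in rapid reoxygenation 12 h, against 16511 and 17667 CPM over the 2 libraries of each. That of miR-10c was 1124 CPM in rapid reoxygenation 12 h in the authors' deposited table, against 1452 CPM here. That of miR-10b was 117 CPM in normoxia 0 h in the authors' deposited table, against 136 CPM here. For the other 6 groups the deposited means equal those of the libraries.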

How the data were processed

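Liver small RNA of golden pompano was sequenced in single-end reads of 50 bases, per the labels' protocols. The submitters' processing notes name Bowtie, without a version; for the reference and the counter, nothing is given in the sources used here. The deposited table is named for TPM but holds CPM made by the authors, in 22 library columns and 8 mean columns. Each library column has the same sum. In the library columns 100% of values are whole reads within 0.05 of a read, with no scaling for length. A read counts once in each entry it matches, so rows share reads, and intervals cover the spread between libraries only.

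Columns were joined to groups by the times in their names and the number of libraries per lettered series. The letters are not explained in the labels, and the columns taken as normoxia 0 h carry no time and were placed by number alone, a limit on every comparison. Library numbers are those of the table.

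After 708 repeated rows were removed, rows of at least 1 CPM in 2 libraries (602 of 1400) were fitted as log2(CPM + 1) with limma 3.58.1 (R 4.3.3, mean-variance trend, all 8 groups in one fit), with Benjamini-Hochberg adjustment per comparison and a threshold of 0.05. Such changes understate those of low rows. There were 11 comparisons of groups, 2 tests of a difference between comparisons and 1 F test over all groups. The recovered reads were also tested with edgeR 4.0.16 (quasi-likelihood) and with DESeq2 1.42.0. edgeR was given the library totals without TMM factors, whereas DESeq2 used its own scaling of libraries. Their results therefore differ in scaling as well as in test. The fit was tested on simulated data (seed 11). Figures were drawn with matplotlib 3.10.9 in Python 3.11.15. Members, partner and marker lists and alternatives were chosen with earlier results of these data known. The rule for naming members took the most abundant row of each family name and arm, with rows averaging at least 100 CPM given library by library and lower rows by range. Sets of near copies were used in its place, because rows with and without an arm name share reads, a choice made after the values were seen. The lower rows miR-10a, miR-10b, miR-10d and the 3p rows of miR-125 are given in more detail, a choice made after their values were seen.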

Additional observations from a re-analysis of the deposited data

How the results depend on the processing

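Counts of called members were recomputed in 258 settings, of which 243 left them at 0. No member was called with TMM factors, quantile normalization, a pseudocount of 10 or 0.1, a filter of 10 CPM, no filter, identical rows kept, only the compared groups in the fit, or the library number as a block. The block count was 0 in each test. Whether the numbers pair the samples is not stated in the labels. Over 70 pairs of libraries with the same number the correlation of deviations lay between −0.468 and 0.495, and 15 exceeded 0.1. Over 141 pairs with different numbers it lay between −0.495 and 0.38, and 46 exceeded 0.1. The deviations were taken from means of 2 or 3 libraries, which ties the libraries of a group together. These correlations therefore cannot decide whether samples were paired. DESeq2 called 1 member for normoxia at 12 h against 0 h (ssa-miR-10d-5p), 3 for rapid reoxygenation at 3 h against hypoxia 0 h, 4 for gradual against rapid reoxygenation at 3 h, 3 for the change of that difference with time and 6 in the test over all groups; edgeR called 4 in that test and 0 elsewhere. In the same order, DESeq2 called 16.1%, 1.16%, 2.33%, 5.15% and 24.4% of all rows, and edgeR called 15.1% in the last. With 1 library left out, the counts ranged from 0 to 12 for normoxia at 12 h against 0 h, 0 to 6 for hypoxia against normoxia at 0 h, 0 to 1 for the change of the hypoxia difference with time, 0 to 4 for rapid reoxygenation at 3 h against hypoxia 0 h, 0 to 4 for gradual against rapid at 3 h, 0 to 1 for the change of that difference and 0 to 5 over all groups. The counts above 0 came from leaving out normoxia 0 h library 3 (12, 6, 1 and 5 calls, with 32.1%, 19.8%, 15.3% and 25.4% of all rows called), rapid reoxygenation 3 h library 1 (4, 4, 1 and 4, with 1.16%, 0.997%, 0.997% and 2.66%) and rapid reoxygenation 12 h library 2 (1 call, miR-10c in the change of the gradual to rapid difference, with 2.49%). The first and the last of these omissions leave a group with 1 library, which is then assumed to vary like the other groups. All these counts include near copies, so they are not counts of separate signals. At 1 read per at most 0.0572 CPM, depth limits the 26 untested rows, which rest on 1 to 137 reads. TMM factors moved the median of all rows by more than 0.1 log2 units for gradual reoxygenation at 12 h against normoxia, hypoxia and rapid reoxygenation at 12 h and for the change of the gradual to rapid difference, and quantile normalization did so for normoxia at 12 h against 0 h and for gradual reoxygenation at 3 h against hypoxia 0 h.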
